A study of Mus musculus with 19 samples.

Results

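Wnt proteins are secreted ligands, and a set of other secreted proteins binds the ligands or their receptors and limits what a cell receives. Transcripts of 10 such mouse genes were followed here in ipsilaterally projecting (iRGC) and contralaterally projecting (cRGC) retinal ganglion cell populations, namely the ligands Wnt2b, Wnt5a, Wnt5b, Wnt7a and Wnt7b, the secreted Frizzled-related proteins Sfrp1, Sfrp2 and Sfrp5, the Dickkopf family member Dkk3 and the Wnt inhibitory factor Wif1. The genes were chosen by symbol, with earlier results of these data known. Their Ensembl identifiers were found in the GRCm38 annotation and all 10 were present among the 47069 genes listed in the deposited tables. Of the 15941 genes with enough counts to be tested, 8 belonged to this set, while Wnt7a and Sfrp5 had too few counts.

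Both populations came from E16.5 retinas of C57/DBA F1 embryos, pooled from males and females, whose genotype the labels give as WT. The paper's methods name C57/DBA F1 hybrids only for the electroporated embryos. The embryos carried Sun1-GFP, a nuclear envelope protein fused to GFP, in the Rosa26 locus behind a stop cassette that Cre recombinase removes. Sert (Slc6a4)-Cre, the ET33 GENSAT line, marked the iRGCs, and Pou4f2-Cre, made by targeting the Brn3b locus, marked the cRGCs, for which the ventrotemporal region had been removed from the retinas. GFP is kept by every descendant of a cell in which Cre was active, so the sort collected cells by their history of Cre activity. RNA of GFP-positive cells was sequenced in 3 libraries per population, each described as a biologic replicate, with 28193178 to 33638083 reads counted on genes per library.

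Wnt ligands are lipid-modified by Porcn and carried to the cell surface by Wls. They bind Frizzled receptors together with Lrp5 or Lrp6 to stabilize β-catenin, or act through Frizzled, Ror and Ryk receptors and the planar polarity proteins, a route by which they steer growing axons. Secreted Frizzled-related proteins and Wif1 bind the ligands themselves, and Dickkopf proteins bind the Lrp co-receptors, although Dkk3 is a divergent member of that family. In the developing eye these proteins are known from the patterning of the optic cup, the growth of its margin and the path of retinal axons, where Sfrp1 acts on Frizzled receptors of the growth cone.

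The labels were first compared with genes that define the populations. Zic2, which specifies iRGCs, was higher in iRGCs (log2 fold change 1.34), and Pou4f1 (-2.28) and Isl2 (-2.15) of the cRGC program were lower. Slc6a4, the gene whose promoter drives the iRGC Cre, did not separate the populations. It had 2.06, 33.4 and 116 CPM (counts scaled by library size after TMM normalization) in iRGC replicates 1, 2 and 3 and 48.1, 35.4 and 30.5 CPM in cRGC replicates 1, 2 and 3, so the library labelled iRGC replicate 1 lay below all cRGC libraries. Markers of retinal progenitors were higher in iRGCs for 10 of 10 genes, with a summed level of 4487 to 5820 CPM against 505 to 1304 CPM in cRGCs, and 13 of 14 ganglion cell markers were lower, with 2573 to 5497 CPM against 12856 to 15884 CPM. Of the endothelial markers, Kdr alone had 320 to 418 CPM in iRGCs and 67.6 to 103 CPM in cRGCs. The other 9 summed to 81.7, 328 and 17.8 CPM in iRGC replicates 1, 2 and 3 and to 4.23 to 5.73 CPM in cRGCs, where Cdh5 and Tie1 were at 0. Mural markers summed to 22.1 to 163 CPM in iRGCs and 4.81 to 6.52 CPM in cRGCs, with Kcnj8 and Acta2 at 0 in cRGCs. Ciliary margin markers summed to 26.5 to 242 CPM and 15.0 to 34.1 CPM, and erythroid markers to 12.2 to 92.7 CPM and 0 to 5.11 CPM, with Alas2 at 0 in cRGCs. The sums of the mural, ciliary margin and erythroid markers and of the 9 endothelial markers were all highest in iRGC replicate 2. Amacrine markers reached 252 to 356 CPM in iRGCs and 101 to 154 CPM in cRGCs, and photoreceptor precursor markers 620 to 800 CPM and 168 to 252 CPM. Rxrg of the photoreceptor list was lower in iRGCs (log2 fold change -1.08). Microglia markers summed to 11.7 to 19.1 CPM in iRGCs and 0.654 to 3.59 CPM in cRGCs. Of the genes of retinal regions, 3 of 4 ventral ones (Vax2, Ephb2 and Ephb3) were lower in iRGCs and Aldh1a3 was higher, 5 of 7 dorsal ones were higher and 1 lower, and Foxd1 of the temporal retina was higher. Ephb2 (log2 fold change -0.24) no longer counted as lower when any library but iRGC replicate 3 was left out. Nor did Tbx5, the lower dorsal gene, without iRGC replicate 1 or 3 or cRGC replicate 3. The ciliary margin, pigment epithelium and fibroblast sums overlapped between the populations, and the sums of the other cell type lists did not. The part of these cell types in the results was not tested. Over all tested genes, 23.3% were called higher in iRGCs and 23.1% lower, at the threshold given below. In sorted bulk samples fewer cells of a type and less RNA per cell cannot be told apart.

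The promoters of Sfrp2, the gene of the set with the largest fold change, and of Wnt5b, the ligand with the highest level per kilobase, are shown because their transcripts moved in the same direction between the populations. The RefSeq promoter table for GRCm38.p6 held 8 promoters of 6 genes of the set (Wnt2b, Wnt5b, Wnt7a, Sfrp2, Sfrp5 and Wif1), and Wnt5a, Wnt7b, Sfrp1 and Dkk3 were not in it. Each run gives the 250 bases before a transcript start, read 5′ to 3′ on the gene's strand, with capitals for CTTTGA (the core bound by Tcf and Lef factors), CAGCAGG (a core bound by Zic factors) and GGGCGG (the GC box) on either strand. The Sfrp2 run ends at the base before the annotated start and lies at chr3:83766071-83766320 on the plus strand. The 3 Wnt5b runs lie on the minus strand at chr6:119544348-119544597, chr6:119467212-119467461 and chr6:119449387-119449636, from the outermost start inwards.
Sfrp2: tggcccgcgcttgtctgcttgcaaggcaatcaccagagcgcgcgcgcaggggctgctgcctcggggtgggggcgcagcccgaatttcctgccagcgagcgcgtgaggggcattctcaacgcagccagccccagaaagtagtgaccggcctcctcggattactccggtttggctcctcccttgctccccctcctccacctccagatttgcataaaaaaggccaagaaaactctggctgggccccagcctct
Wnt5b, outermost start: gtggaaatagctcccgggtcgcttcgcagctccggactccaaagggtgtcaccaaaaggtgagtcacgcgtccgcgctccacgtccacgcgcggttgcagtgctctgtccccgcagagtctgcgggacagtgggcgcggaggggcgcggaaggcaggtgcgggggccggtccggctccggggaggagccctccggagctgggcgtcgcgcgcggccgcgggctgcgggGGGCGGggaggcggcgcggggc
Wnt5b, middle start: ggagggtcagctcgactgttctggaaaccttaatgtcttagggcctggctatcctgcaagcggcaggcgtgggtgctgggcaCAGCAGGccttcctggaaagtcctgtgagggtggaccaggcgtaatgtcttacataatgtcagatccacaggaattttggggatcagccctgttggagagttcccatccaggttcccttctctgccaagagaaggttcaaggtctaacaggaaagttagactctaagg
Wnt5b, innermost start: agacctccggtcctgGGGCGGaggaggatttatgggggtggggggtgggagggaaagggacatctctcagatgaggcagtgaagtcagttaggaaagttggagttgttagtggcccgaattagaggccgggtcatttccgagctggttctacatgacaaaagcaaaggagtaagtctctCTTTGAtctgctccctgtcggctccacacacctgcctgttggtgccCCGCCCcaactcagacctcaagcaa
The Sfrp2 run held none of the 3 motifs, which says only that these letters are missing from this window. The outermost Wnt5b run held 1 GC box, 22 bases before the start. The middle run held 1 CAGCAGG, 168 bases before the start, and the innermost run held 1 CTTTGA, 71 bases before the start, with 2 GC boxes. Over all 32851 promoters of the table, 13.8% held CTTTGA, 8.44% CAGCAGG and 32.7% GGGCGG in the same window. The GC content was 63.6% for Sfrp2 and 75.2%, 53.2% and 55.6% for the Wnt5b starts in the order printed, against a median of 52.4% for all promoters.

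Transcripts of 3 ligands, 2 secreted Frizzled-related proteins and Dkk3 were higher in iRGCs than in cRGCs, and 0 genes of the set were lower. The 6 higher genes rose by log2 fold changes of 0.73 for Sfrp1 to 2.92 for Sfrp2, with Wnt5a, Wnt5b, Wnt7b and Dkk3 between 1.93 and 2.64. Wnt2b and Wif1 stayed below 2 CPM in every library and missed the threshold, which was an adjusted p-value under 0.1 in edgeR's quasi-likelihood test after Benjamini-Hochberg adjustment over the 15941 genes. Thus 6 of the 8 tested genes were higher, where 23.3% of all tested genes were called higher in iRGCs, 23.1% lower and 46.4% in either direction. The median log2 fold change was 1.94 over the 8 genes and -0.00307 over all tested genes. In the same 6 genes the libraries of the populations did not overlap, which held in this direction for 27.1% of all tested genes and in either direction for 55.3%. The number of lower genes was also 0 at an unadjusted p-value under 0.05, with DESeq2 and with limma voom. Because the set was chosen with earlier results of these data known, its counts and median only describe these genes. Outside the set, 0 of 4 other tested ligands were higher and 2 lower. Of 7 other tested inhibitors, 2 were higher and 2 lower.

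**Figure D1:**
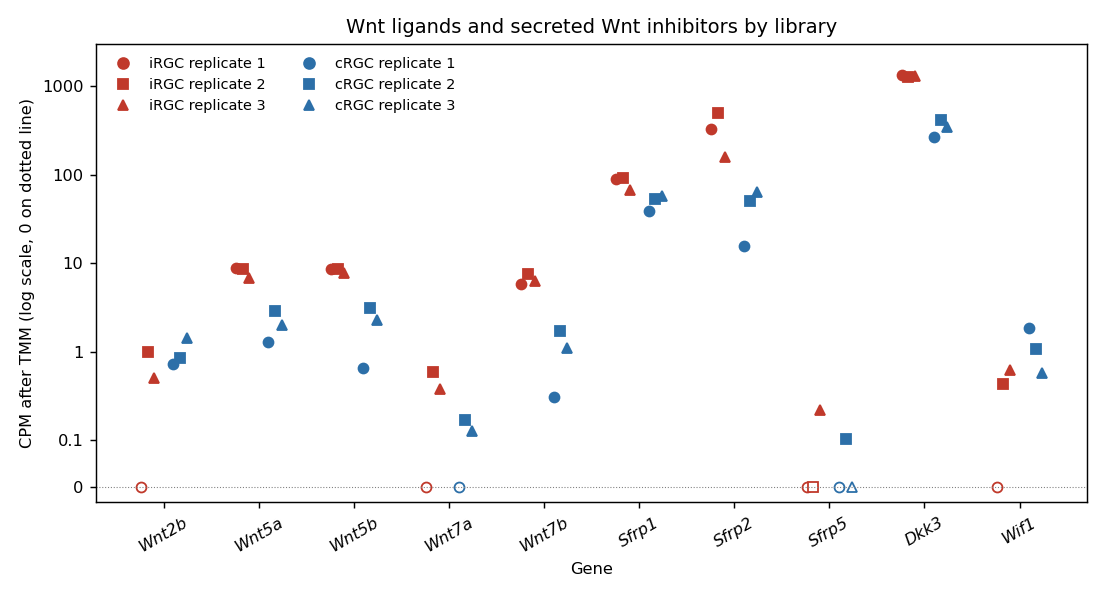
Level of each of the 10 genes in each of the 6 libraries, as CPM after TMM on a log axis, with open symbols on the dotted line for libraries at 0 counts. Red symbols are iRGC and blue symbols cRGC libraries, and a symbol's shape gives the replicate. For Wnt5a, Wnt5b, Wnt7b, Sfrp1, Sfrp2 and Dkk3 the 3 iRGC libraries lie above the 3 cRGC libraries, while Wnt2b, Wnt7a, Sfrp5 and Wif1 overlap below 2 CPM.

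Wnt5a, a ligand known for acting through Ror and Ryk on cell movement and axons, lies on chromosome 14 of GRCm38, bases 28504750 to 28527448. It had 8.81, 8.69 and 6.75 CPM in iRGC replicates 1, 2 and 3 and 1.31, 2.90 and 2.03 CPM in cRGC replicates 1, 2 and 3. All iRGC libraries lay above all cRGC libraries, and cRGC replicate 1 was the lowest. With means of 8.08 ± 1.16 and 2.08 ± 0.797 CPM (SD, n = 3), the log2 fold change came to 1.95 with an SE of 0.41 and a Benjamini-Hochberg adjusted p of 0.00483 in edgeR. Another gene overlaps 4.58% of the exonic bases of Wnt5a, and the sources used here do not state whether counting used the strand of the reads.

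Wnt5b, the closest relative of Wnt5a, lies on chromosome 6 from 119432531 to 119544347. Its iRGC replicates gave 8.75, 8.65 and 7.85 CPM, against 0.654, 3.14 and 2.29 CPM in the cRGC replicates. The iRGC libraries were close to each other and above all cRGC libraries, whose highest value was 4.81 times their lowest. The means were 8.42 ± 0.493 and 2.03 ± 1.26 CPM, and the log2 fold change came to 2.05 with an SE of 0.54 and a Benjamini-Hochberg adjusted p of 0.0145 in edgeR.

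Wnt7b, known in the eye as a signal in the regression of the hyaloid vessels, is encoded on chromosome 15 from 85535437 to 85582473. Its level was 5.85, 7.51 and 6.31 CPM in iRGCs and 0.308, 1.73 and 1.10 CPM in cRGCs. The populations did not overlap, and cRGC replicate 1, with 8 counts, was again the lowest. The means of 6.56 ± 0.857 and 1.04 ± 0.711 CPM gave the largest fold change among the ligands, 2.64 on the log2 scale, with an SE of 0.62 and a Benjamini-Hochberg adjusted p of 0.00860 in edgeR. Another gene shares 6.61% of its exonic bases.

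The other ligands were scarce. Wnt2b, a ligand known from the margin of the developing retina, lies on chromosome 3 from 104945272 to 104961921 and had 0, 0.989 and 0.505 CPM in iRGCs and 0.730, 0.863 and 1.42 CPM in cRGCs. The libraries overlapped, and edgeR gave a log2 fold change of -1.01 with an SE of 1.35 and a Benjamini-Hochberg adjusted p of 0.603, not past the threshold. At this depth, 3 counts in iRGC replicate 1, the limit that a count of 0 allows, would be 0.0965 CPM. Wnt7a, the paralog of Wnt7b on chromosome 6 from 91363981 to 91411363, had 0, 19 and 12 counts in the iRGC replicates and 0, 5 and 4 counts in the cRGC replicates and was not tested. Each population had a library without a count, where the limit was 0.0965 CPM in iRGC replicate 1 and 0.115 CPM in cRGC replicate 1. These limits cover counting error only. In iRGC replicates 1, 2 and 3, 16564, 19323 and 20283 genes had a count, and in cRGC replicates 1, 2 and 3, 17831, 19279 and 19145. Replicate 1 thus had the fewest detected genes in each population, and the part of this in its zeros and low values was not tested.

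Sfrp1, a secreted inhibitor that also guides retinal axons, is encoded on chromosome 8 from 23411502 to 23449632. It was counted at 90.4, 91.8 and 67.4 CPM in the iRGC replicates and at 39.4, 53.5 and 57.9 CPM in the cRGC replicates. The iRGC libraries lay above the cRGC libraries with a gap of less than 10 CPM between iRGC replicate 3 and cRGC replicate 3. The means were 83.2 ± 13.7 and 50.3 ± 9.69 CPM, and the log2 fold change of 0.73, with an SE of 0.18 and a Benjamini-Hochberg adjusted p of 0.0114 in edgeR, was the smallest of the 6.

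Sfrp2, which acts redundantly with Sfrp1 in the embryo, is encoded on chromosome 3 from 83766321 to 83774316, directly after the promoter run printed above. Its level was 327, 495 and 158 CPM in iRGC replicates 1, 2 and 3 and 15.7, 50.5 and 63.2 CPM in cRGC replicates 1, 2 and 3. The populations did not overlap, and among the genes past the threshold Sfrp2 had the widest spread between iRGC libraries, 3.15 times from the lowest to the highest. Its means of 327 ± 169 and 43.1 ± 24.6 CPM gave a log2 fold change of 2.92 with an SE of 0.54 and a Benjamini-Hochberg adjusted p of 0.00256 in edgeR. It was 2.48 without iRGC replicate 2, the library in which the vascular and ciliary margin markers were highest, and the part of those cells in the Sfrp2 level was not tested. Gm26771, a gene on the opposite strand with 0 to 1.11 CPM in the 6 libraries, covers 16.1% of the exonic bases of Sfrp2, and how many reads fell on these bases was not measured. Sfrp5, on chromosome 19 from 42197971 to 42202252, had 0, 0 and 7 counts in iRGCs and 0, 3 and 0 counts in cRGCs and was not tested.

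Dkk3, the divergent Dickkopf, was the most abundant transcript of the set. The gene lies on chromosome 7 from 112116017 to 112159057. It was counted at 1353, 1268 and 1294 CPM in the iRGC replicates and at 270, 411 and 345 CPM in the cRGC replicates. The iRGC libraries differed by a factor of 1.07 at most, and each was more than 3 times as high as any cRGC library. The means of 1305 ± 43.6 and 342 ± 70.5 CPM gave a log2 fold change of 1.93 with an SE of 0.153 and a Benjamini-Hochberg adjusted p of 2.05e-04 in edgeR, and this SE was the smallest of the 8.

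Wif1, on chromosome 10 from 121033960 to 121100650, had 0, 0.433 and 0.631 CPM in iRGCs and 1.85, 1.07 and 0.581 CPM in cRGCs. Its highest iRGC library lay just above its lowest cRGC library. The log2 fold change came to -1.70 with an SE of 1.35 and a Benjamini-Hochberg adjusted p of 0.360 in edgeR, within 2 SEs of 0.

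**Figure D2:**
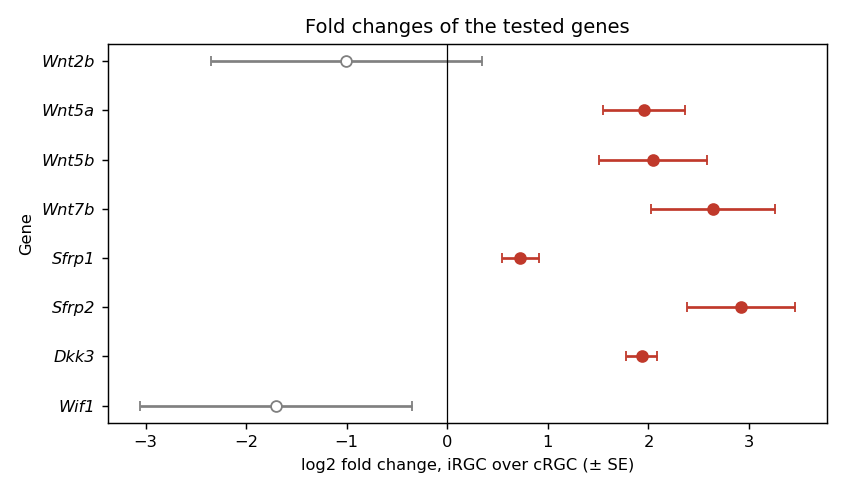
Log2 fold change of iRGCs over cRGCs on the x axis for the 8 tested genes, with bars for the SE. Filled red points are past the threshold and open grey points are not. Sfrp2 (2.92) and Wnt7b (2.64) lie farthest to the right, Sfrp1 at 0.73, and the points of Wnt2b and Wif1 lie left of 0 with SEs of 1.35.

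Levels of different genes were compared as CPM per kilobase of exon. In iRGCs the order was Dkk3 (388 ± 13.0, SD, n = 3), Sfrp2 (152 ± 78.5), Sfrp1 (19.0 ± 3.13), Wnt5b (3.17 ± 0.186), Wnt7b (1.34 ± 0.175) and Wnt5a (1.03 ± 0.148), and the libraries of neighbours in this order did not overlap. Below them Wif1, Wnt2b, Wnt7a and Sfrp5, each at less than 0.15 CPM per kilobase on average, overlapped. In cRGCs Dkk3 (102 ± 20.99) again stood first, Sfrp2 (20.04 ± 11.4) and Sfrp1 (11.5 ± 2.22) overlapped, and Wnt5b (0.764 ± 0.476), Wif1 (0.480 ± 0.263), Wnt5a (0.266 ± 0.102), Wnt2b (0.239 ± 0.0871) and Wnt7b (0.213 ± 0.145) followed, with each overlapping the next. Wnt7b was thus the fifth of the order in iRGCs and the eighth in cRGCs.

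The 5 ligands summed to 5.35 to 6.33 CPM per kilobase in iRGC libraries and to 0.650 to 2.17 in cRGC libraries. The 5 inhibitors summed to 474 to 629 CPM per kilobase in iRGCs and to 97.4 to 159 in cRGCs. The inhibitor sum was 88.7 to 102 times the ligand sum in iRGCs and 73.2 to 150 times in cRGCs, and these ranges overlapped. Within the inhibitor sum, Dkk3 made up 60.04% to 81.2% in iRGC libraries and 70.6% to 82.5% in cRGC libraries, and Sfrp1 3.25% to 3.60% and 7.72% to 9.24%. The inhibitor sum thus rests mostly on Dkk3, the divergent Dickkopf. Both sums cover the set only. They leave out other genes, whose levels are given here as CPM, not per kilobase, and cannot be set against the sums. Among these are Wnt3, at 3.13 CPM in iRGCs and 14.0 CPM in cRGCs, and Wnt4, at 1.07 and 6.81 CPM. Draxin, at 102 and 314 CPM, is another. The quotient is therefore not the balance of all ligands and inhibitors.

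Of 5 ratios of levels per kilobase taken within each library, 3 did not overlap between the populations. These 5 are only some of the pairs the set allows. A ratio largely restates the difference between the fold changes of its genes, and the share of other gene pairs without overlap was not computed. Sfrp2 stood at 7.34, 10.96 and 4.74 times Sfrp1 in iRGC replicates 1, 2 and 3 and at 0.809, 1.92 and 2.22 times in cRGC replicates 1, 2 and 3. Every iRGC library had the larger ratio. Dkk3 was 20.8 ± 3.68 times Sfrp1 in iRGCs and 8.89 ± 1.11 times in cRGCs, and Wnt7b was 1.31 ± 0.224 times Wnt5a in iRGCs and 0.729 ± 0.309 times in cRGCs (SD, n = 3, without overlap in either ratio). Each of these 3 gave p = 0.1 in a two-sided exact permutation test, the smallest value that 3 libraries against 3 allow, and 0.167 after Benjamini-Hochberg adjustment over the 5 ratios. Dkk3 over Sfrp2 (p = 0.3) and Wnt5b over Wnt5a (p = 0.8) overlapped between the populations in the same exact permutation test.

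The 6 higher genes were then set beside the retinal progenitor markers, whose geometric mean was 388, 367 and 299 CPM in iRGC replicates 1, 2 and 3 and 40.1, 99.2 and 56.8 CPM in cRGC replicates 1, 2 and 3. Among the cRGC libraries, all 6 genes were lowest in replicate 1, where the markers were lowest too, and 4 of the 6 (Wnt5a, Wnt5b, Wnt7b and Dkk3) were highest in replicate 2, where the markers were highest. Of the 3707 genes called higher in iRGCs, 60.02% were lowest in cRGC replicate 1 and 54.4% highest in replicate 2. Sfrp1 and Sfrp2 were highest in cRGC replicate 3. Among the iRGC libraries the markers fell from replicate 1 to replicate 3, and Wnt5a and Wnt5b had the same order. The other genes did not. Wnt7b, Sfrp1 and Sfrp2 were highest in iRGC replicate 2, and Dkk3 was lowest there.

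Divided by the marker mean of the same library, the levels of Wnt5b, Wnt7b, Sfrp2 and Dkk3 overlapped between the populations. For Dkk3 the quotient was 3.76 ± 0.494 in iRGCs and 5.65 ± 1.35 in cRGCs, and for Sfrp2 it was 0.907 ± 0.416 and 0.671 ± 0.388 (SD, n = 3). The quotients of Wnt5a and Sfrp1 did not overlap and were the smaller ones in iRGCs, at 0.0230 ± 6.05e-04 against 0.0325 ± 0.00330 for Wnt5a and at 0.236 ± 0.0127 against 0.847 ± 0.267 for Sfrp1. The 10 markers themselves had a median log2 fold change of 2.56, so a gene with a smaller change tends to a smaller quotient in iRGCs. The quotients thus largely restate the fold changes, and the part of progenitor cells in these levels was not tested.

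**Figure D3:**
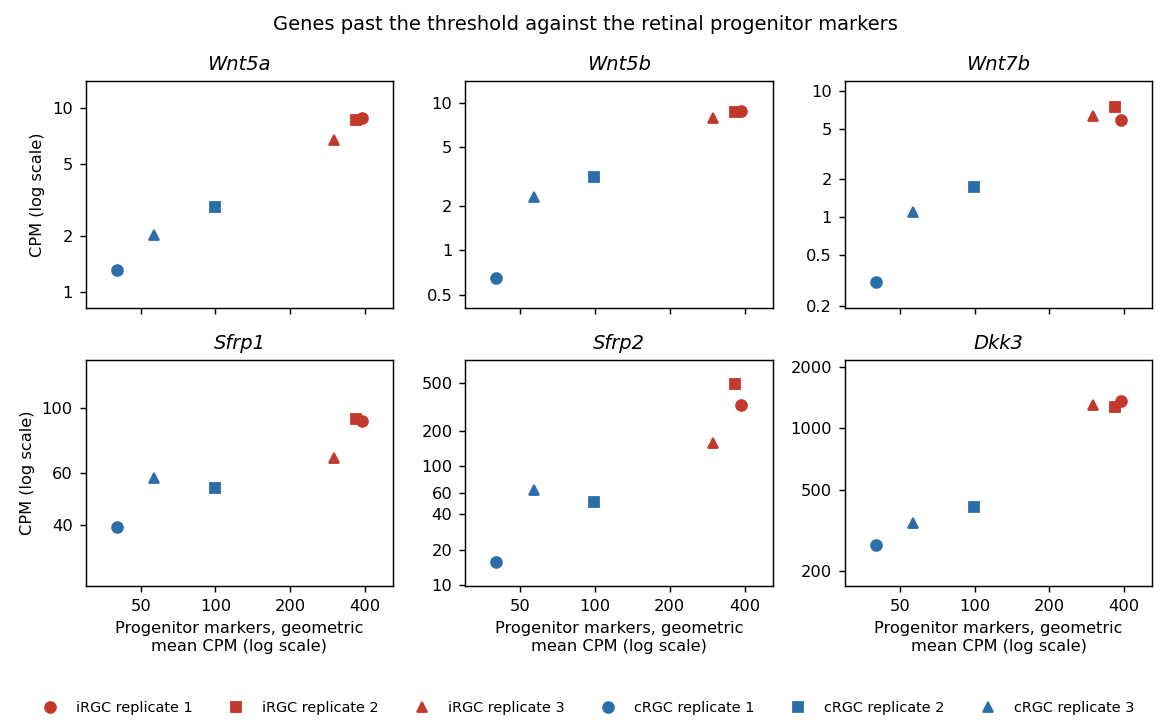
Level of each of the 6 genes past the threshold (y axis, CPM) against the geometric mean CPM of 10 retinal progenitor markers (x axis), both on log axes, with 1 point per library. The 3 red iRGC libraries lie at 299 to 388 CPM of the markers and the 3 blue cRGC libraries at 40.1 to 99.2 CPM, and in every panel the iRGC points are also the higher ones. Dkk3 and the 3 ligands are ordered like the markers within the cRGC libraries, and Sfrp1 and Sfrp2 are highest in cRGC replicate 3.

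The genes most like each of the 6 in pattern were found by the Euclidean distance between profiles of log2 CPM over the 6 libraries, each centred on its mean, among 12111 genes averaging 100 normalized counts or more. Nearest to Dkk3 were Mcm6 (distance 0.0848), Hat1 (0.147) and Tipin (0.156), and nearest to Wnt5a were Rad18 (0.194), Timeless (0.209) and Chtf18 (0.215). Mcm6 is a subunit of the replicative helicase, Tipin and Timeless form a complex at the replication fork, and Chtf18 loads the sliding clamp. The nearest genes to Wnt5b were Pde6c (0.267), Nt5dc1 (0.282) and Pltp (0.285), and those nearest to Wnt7b were Efemp1 (0.179), Ctdsp1 (0.303) and Fgfrl1 (0.305). Sfrp1 was most like Hax1 (0.187), Cad (0.215) and Ctdspl (0.249), and Sfrp2 was most like Arhgap29 (0.484), Ephb4 (0.533) and C1qtnf6 (0.619), of which Ephb4 is a receptor of venous endothelium. Sfrp2 thus had the most distant neighbours. Profiles were centred but not scaled, so genes near each other also have similar fold changes. Functions are given for some of the neighbours only, and what the neighbours share was not tested. Among the 6 genes themselves the closest pair was Wnt5a and Dkk3 (0.415), followed by Wnt5b and Wnt7b (0.525), and the farthest was Sfrp1 and Sfrp2 (3.08).

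Other genes of the pathway were counted in 9 lists. Of 96 genes, 76 were tested, 33 were higher and 21 lower in iRGCs, and 22 were neither, and the tested genes had a median of 0.26 on the log2 scale. Over all tested genes 23.3% were higher and 23.1% lower. The counts of each list below only describe its genes and are to be read beside these shares. Single genes are given by their log2 fold change, and calls in these lists follow the threshold given for the set.

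Of the 14 other Wnt ligands, 4 were tested, of which 0 were higher (also 0 at an unadjusted p-value under 0.05, with DESeq2 and with voom) and 2 lower. Wnt3, a ligand that repels retinal axons through Ryk in their target, stood at 1.99, 3.21 and 4.19 CPM in the iRGC replicates and at 13.4, 14.3 and 14.2 CPM in the cRGC replicates. The populations were far apart, with a log2 fold change of -2.16 (SE 0.323) in the direction opposite to Wnt5a, Wnt5b and Wnt7b. Wnt4 (-2.66, SE 1.07) was called as well, but it was not past the threshold without iRGC replicate 2 or without any single cRGC library. Of the pair that makes Wnt proteins ready for release, the acyltransferase Porcn was lower (-1.25) and the carrier Wls higher (3.87), although Wls was not past the threshold without iRGC replicate 2 (Benjamini-Hochberg adjusted p of 0.103 in edgeR).

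Of the 11 other secreted inhibitors, 7 were tested, with 2 higher and 2 lower. Dkk1 (5.61) and Notum (2.20), a Dickkopf that blocks Lrp5 and Lrp6 and an enzyme that removes the lipid of Wnt proteins, were higher. In iRGC replicates 1, 2 and 3, Dkk1 stood at 0.643, 6.03 and 0.725 CPM and Notum at 4.73, 18.2 and 4.54 CPM. Both were thus highest in iRGC replicate 2, and without that library their log2 fold changes were 3.77 and 1.21 and not past the threshold (Benjamini-Hochberg adjusted p of 0.175 and 0.139 in edgeR). Of the exonic bases of Notum, 38.1% also belong to another gene. Draxin, an axon repellent that binds Dcc, was lower in iRGCs (-1.63), at 102 ± 24.0 CPM against 314 ± 30.8 CPM, and so was Dkkl1 (-2.35).

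Among the receptors, more genes were higher than lower in iRGCs. Of the 10 Frizzled genes 8 were higher and 0 lower (also 0 lower at an unadjusted p-value under 0.05, with DESeq2 and with voom), led by Fzd6 (3.12), Fzd10 (2.77) and Fzd7 (2.57). Fzd8 missed the threshold without iRGC replicate 2 or cRGC replicate 1, and Fzd9 without iRGC replicate 3 or cRGC replicate 1 or 2, each left out in turn. Vangl1, among the co-receptors and planar polarity genes, missed it without iRGC replicate 2 or cRGC replicate 3. Of the co-receptors and planar polarity genes 8 were higher and 3 lower out of 14 tested. The cadherin Celsr1 (2.88), the Wnt5a receptor Ror1 (2.41) and the co-receptor Lrp5 (1.92) had the largest changes upwards, and Celsr3 (-1.30), Prickle2 (-1.16) and Vangl2 (-0.69), of the planar polarity group, downwards. Of the R-spondin and Lgr genes, 6 were tested, and Lgr4 (1.33), an R-spondin receptor, and Znrf3 (1.22), a ligase that removes Frizzleds, were higher. In that list 0 genes were lower in edgeR, also at an unadjusted p-value under 0.05, and 1 was lower with DESeq2 and 1 with voom.

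Inside the cell, 3 of 14 genes of cytoplasmic signalling were higher, namely Dvl2 (0.64), Axin1 (0.47) and Ctnnb1 (0.44), which encodes β-catenin, and 9 were lower, led by Camk2a (-2.29), Camk2b (-1.76) and Apc (-1.20). Of the Tcf and Lef factors and their partners 6 of 12 were higher, with Tcf7 (2.70), Tle2 (2.61) and Tcf7l2 (2.44) first, and 2 were lower, Tle4 (-0.59) and Pygo1 (-0.52). Of the 6, Lef1 missed the threshold without any of 4 libraries in turn (both iRGC and cRGC replicates 1 and 2) and Bcl9l without any library but iRGC replicate 2, and DESeq2 called 5. Btrc, a lower gene of the cytoplasmic list, missed it without iRGC replicate 2 or cRGC replicate 3. Of the 7 tested target and feedback genes, 3 were higher, namely Ccnd1 (2.48), a cell cycle gene with 23.4% of its exonic bases shared, Apcdd1 (2.25) and Nkd1 (0.76). Dact1 (-1.05) and Myc (-0.97) were lower, though Dact1 missed the threshold without cRGC replicate 1, and Myc without iRGC replicate 1 or 2 or cRGC replicate 1 or 2. Axin2, the target most often read as a sign of β-catenin signalling, averaged 14.8 ± 3.60 CPM in iRGCs against 17.4 ± 2.12 CPM in cRGCs (SD, n = 3) and was not past the threshold (-0.23, SE 0.226).

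**Figure D4:**
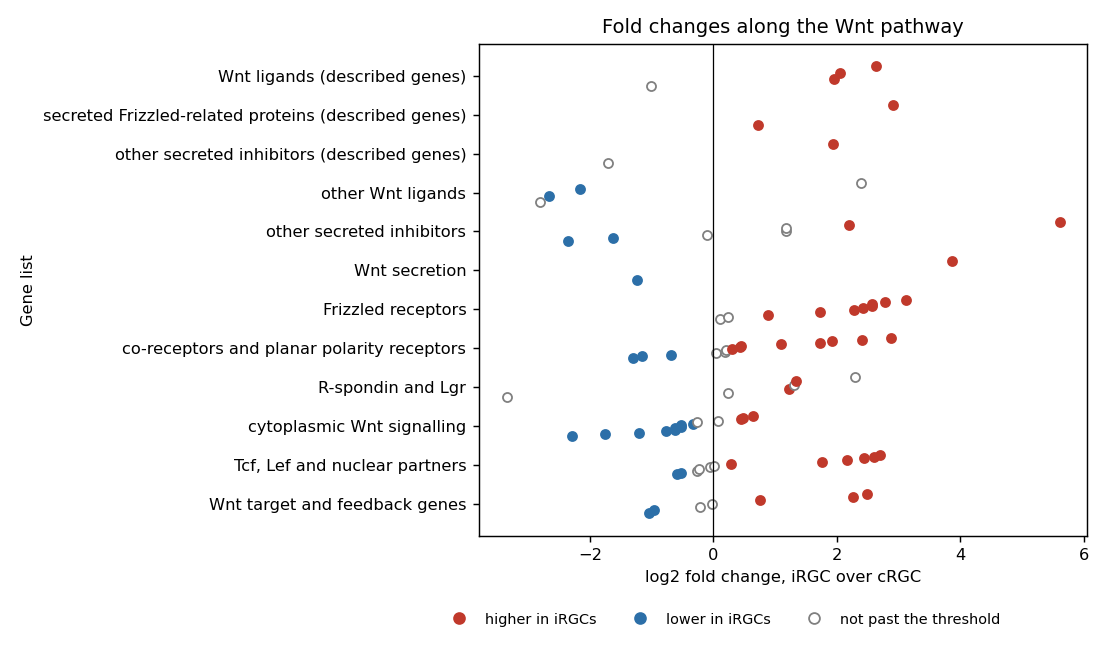
Log2 fold change of iRGCs over cRGCs on the x axis for the tested genes of each list of the Wnt pathway on the y axis, with 1 point per gene and points spread vertically for legibility. Red points were past the threshold and higher in iRGCs, blue points past it and lower, and open points were not past the threshold. The 10 Frizzled genes all lie right of 0, and 9 of the 14 genes of cytoplasmic signalling are blue.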

How the data were processed

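Of the study's samples, the 6 RNA-seq libraries were used (3 iRGC and 3 cRGC libraries at E16.5), and the 13 ATAC-seq samples were not analysed here. Alignment to mm10 was done by the authors with HISAT2 2.1.0 and counting with HTSeq 0.11.1 on Ensembl genes of GRCm38, and what they deposited are raw counts per gene. Tallies without a gene name were left out of every step, of which those that hit no gene were 8.09% to 16.8% of all tallied alignments. Symbols, positions and exon lengths were taken from GENCODE M21 (46574 of the 47069 listed genes matched), and promoters from RefSeq. The members of the set and the lists were chosen with earlier results of these data known.

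The counts went into edgeR 4.0.16 (R 4.3.3) with filterByExpr, TMM factors (1.03 to 1.10 for iRGC and 0.921 to 0.952 for cRGC libraries) and the two-sided quasi-likelihood test without a block. Benjamini-Hochberg adjustment covered all 15941 tested genes, and the threshold was the study's false discovery rate of 10%. The SE of a log2 fold change was derived from its F statistic. With a biological coefficient of variation of 36.3%, small differences at low counts were below what 3 libraries per population can detect. Centred profiles used log2 of CPM plus 0.5. Libraries of a population differed by 25.2 to 69.4 chi-square units per degree of freedom, more than counting noise, so none was taken for a library deposited again. Whether replicates came from separate litters is not given in the sources used here, and p-values then measure the spread between these libraries. The fits were tested on simulated data. The outcome is not reported here, and no result given rests on it. From each pathway list, up to 3 called genes per direction with the largest fold changes were named, and Axin2, genes whose call was lost without a library and genes of the region lists were named after their values were seen. Alternatives were DESeq2 1.42.0 and its size factors, upper quartile or no factors, limma voom (limma 3.58.1), other filters and thresholds, each library left out, a replicate block, the longest transcript as gene length and CPM without TMM. Plots were made in matplotlib 3.10.9 (Python 3.11.15).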

Additional observations from a re-analysis of the deposited data

How the results depend on the processing

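The 6 genes of the set higher in iRGCs were 6 under all alternatives but 2. With at least 10 counts required in every library Wnt7b, with 8 counts in cRGC replicate 1, was no longer tested and 5 genes were called, and with an absolute log2 fold change above 1 Sfrp1 (0.73) was no longer past the threshold, which also left 5. The count was 6 without each library in turn, and 0 genes were lower under any alternative. No log2 fold change of a tested gene of the set was reversed, and the adjusted p-values of the 6 over all alternatives reached 0.0471 at most, for Wnt5b (Benjamini-Hochberg). Without each library in turn, the log2 fold change lay between 1.71 and 2.29 for Wnt5a, 1.62 and 2.51 for Wnt5b, 2.20 and 3.21 for Wnt7b, 0.58 and 0.85 for Sfrp1, 2.48 and 3.30 for Sfrp2, and 1.78 and 2.1 for Dkk3.

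Among the other pathway genes, 21 were lower and 33 higher, against 11 and 24 when an absolute log2 fold change above 1 was required. Without each library in turn, 27 to 32 were higher and 18 to 25 lower, with the fewest higher without iRGC replicate 2. With the replicate number as a block, 6 genes of the set and 31 other pathway genes were higher and 20 lower. Libraries with the same number did not deviate together (correlations of -0.014, -0.045 and -0.067), so the number was not treated as a pairing. Without normalization factors the median log2 fold change of all tested genes was 0.20 in place of -0.00307 and 5100 genes were higher against 2842 lower, a share of 64.2% higher in place of 50.1% (3707 and 3688), and the 6 genes of the set had log2 fold changes of 0.94 (Sfrp1) to 3.13 (Sfrp2). Levels per kilobase moved by more than the spread between libraries for Wnt5b in iRGCs (3.55 with the longest transcript as length, 3.41 without TMM), Wnt7b in iRGCs (1.93 with the longest transcript) and Dkk3 in iRGCs (417 without TMM). At this depth the few counts of Wnt2b, Wnt7a, Sfrp5 and Wif1 limit what can be seen of them.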
